A study of Mus musculus with 36 samples.

Results

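Translation factors are the proteins that bring ribosomes to messenger RNA, find the start codon and drive the growth of the peptide chain. Their genes were taken here as every symbol in the deposited expression tables that begins with Eif1 to Eif6 or with Eef1 or Eef2, which also takes in the inhibitors, kinases and methyltransferases named after the factors. This gave 66 of 9844 genes in a table of eosinophils from 7 mouse tissues, and 60 of 8001 genes in a table of eosinophils of the small intestine divided by an Nmur1 reporter. All 60 were also in the tissue table, and Eef1akmt1, Eef2kmt, Eif2ak3, Eif2b3, Eif3j2 and Eif4ebp3 were in the tissue table only. The comparison followed throughout is whether the factors moved with the 82 genes of cytosolic ribosomal proteins, all of which were in both tables.

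Eosinophils are granulocytes made in the bone marrow that settle in mucosal tissues. Total eosinophils were flow-sorted from wildtype C57BL/6 mice of 8 to 12 weeks at steady state, sexes pooled, as 3 libraries of bone marrow, 4 of blood, 4 of spleen, 3 of lung, 3 of skin, 3 of colon and 4 of small intestine. The second set came from NMUR1-TdT reporter mice of that strain and age range, also at steady state, in which a TdT reporter marks cells that express Nmur1, a receptor for the nerve-derived peptide neuromedin U. It held 5 positive and 6 negative libraries of small intestine eosinophils. The labels leave it unsaid whether replicates were separate animals, so a p-value here reflects the scatter among libraries, part of which may be technical.

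Initiation begins when eIF2 carries the initiator tRNA to the small ribosomal subunit, where eIF1, eIF1A, eIF3 and eIF5 gather, while the eIF4 proteins bind the cap of the messenger RNA and unwind its leader. The exchange factor eIF2B reloads eIF2 with GTP, and kinases of the stress response stop this step by phosphorylating eIF2. Elongation is carried by eEF1A, which delivers aminoacyl tRNA and is recharged by the eEF1B subunits, and by eEF2, which moves the ribosome. Messenger RNAs of ribosomal proteins and of several factors begin with a C followed by a run of pyrimidines, the terminal oligopyrimidine (TOP) motif, through which their translation is set together by mTORC1.

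The sequences around the annotated starts of 6 genes are shown because a TOP motif would lie there if those starts were used. They run from 30 bases before the start to 30 bases from the start on, 5′ to 3′ on the strand of the gene, from RefSeq on build GRCm38.p6. Capitals mark the longest unbroken run of C and T. Eef1a1, Eef1b2 and Eif3f belong to the list of TOP messenger RNAs, Eif3k and Eef1b2 followed the ribosomal protein genes most closely across tissues, and Eif4a2 and Eif5 had opposite tissue patterns.
Eef1a1, chr9:78481695-78481754, minus strand: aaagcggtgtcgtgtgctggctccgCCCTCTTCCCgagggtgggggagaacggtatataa
Eef1b2, chr1:63176801-63176860, plus strand: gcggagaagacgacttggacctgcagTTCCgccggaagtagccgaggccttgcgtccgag
Eif3f, chr7:108934385-108934444, plus strand: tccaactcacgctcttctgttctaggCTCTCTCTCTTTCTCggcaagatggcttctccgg
Eif3k, chr7:28981859-28981918, minus strand: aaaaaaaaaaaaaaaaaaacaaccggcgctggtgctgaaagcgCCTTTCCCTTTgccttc
Eif4a2, chr16:23107438-23107497, plus strand: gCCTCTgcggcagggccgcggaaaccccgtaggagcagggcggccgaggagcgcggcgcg
Eif5, chr12:111538071-111538130, plus strand: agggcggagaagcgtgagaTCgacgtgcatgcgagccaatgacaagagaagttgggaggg
The run was 15 bases long in Eif3f, 11 in Eif3k, 10 in Eef1a1, 5 in Eif4a2, 4 in Eef1b2 and 2 in Eif5. The run began 29 bases before the annotated start in Eif4a2, 11 in Eif5, 5 in Eef1a1 and 4 in Eef1b2 and Eif3f. In Eif3k it began 13 bases after the start. No run is thereby shown to be a TOP motif. A run of at least 8 bases was found in 17 of 67 promoters of the 52 factor genes with a RefSeq entry (25.4%), in 22.9% of all 32851 promoters and in 37 of 72 promoters of ribosomal protein genes (51.4%). The hexamer CACGTG, which reads the same on both strands, was found in the 300 bases around the start in 16 of the 67 factor promoters (23.9%), against 7.15% of all promoters and 11.1% of those of ribosomal protein genes. The octamer TGACGTCA, also the same on both strands, was found in 1.49% of factor promoters and 1.79% of all promoters. A match to such letters is a description of the window, and annotated starts need not be the ones used in these cells.

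The labelled cell type was checked first. All 9 eosinophil markers were in the tissue table, and their sum averaged 74671 TPM (transcript abundance scaled for length and library total) in bone marrow, 10266 TPM in spleen and 1269 to 3867 TPM in the other tissues. Most of this difference lay in the granule proteins: Prg2 averaged 72326.5 TPM in bone marrow and 55.1 TPM in small intestine, and Epx averaged 1520 TPM in bone marrow, 114 TPM in spleen and 0 to 1.29 TPM elsewhere. The surface markers varied less, with means of 119 to 296 TPM for the lectin Siglecf and 310 to 1288 TPM for the eotaxin receptor Ccr3. Markers of other cells were present at levels that differed between tissues. The sum of 8 neutrophil markers averaged 59861 to 70946 TPM in bone marrow, blood, spleen and lung and 7478 to 12932 TPM in skin, colon and small intestine, but outside bone marrow nearly all of it was Retnlg, at 61058.5 TPM in blood and 6941 TPM in small intestine. S100a8, which neutrophils hold in abundance, averaged 16464 TPM in bone marrow, ranged from 4.04 to 3242 TPM in spleen and averaged 0 to 15.3 TPM in the other tissues. Camp and Lcn2 averaged 0 to 1.36 TPM outside bone marrow and spleen. S100a9 averaged 16214 TPM in bone marrow, 1209 TPM in spleen, 141 TPM in lung and 16.2 to 44.5 TPM in the other tissues. Mmp9 went another way, at 157 TPM in bone marrow, 546 TPM in blood and 463 TPM in small intestine. Markers of granulocyte progenitors and cycling cells summed to 13067 TPM in bone marrow and to 6.81 to 65.0 TPM elsewhere. Erythroid and platelet markers summed to 79794 TPM in blood, 13558 TPM in bone marrow, 18391 TPM in spleen, 17807 TPM in lung, 7193 TPM in small intestine, 552 TPM in skin and 227 TPM in colon, and from 86.6 to 17804.5 TPM between small intestine libraries. The 3 measured B and plasma cell markers summed to 431 TPM in small intestine, from 204 to 1080 TPM between libraries. Elsewhere this sum averaged 22.6 to 168 TPM. Nkg7, of T and natural killer cells, averaged 691 TPM in bone marrow and 0 to 17.9 TPM elsewhere. Stromal and endothelial markers summed to 190 TPM in small intestine, 117 TPM in colon and 24.6 to 41.7 TPM elsewhere. Macrophage and dendritic markers summed to 0.39 to 56.1 TPM and epithelial ones to 38.9 to 112 TPM. The part of such cells in the results below was not tested. In bulk libraries a smaller share of cells of a type and less RNA per cell cannot be told apart.

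Factor genes held a small share of the transcripts, and this share, like that of ribosomal protein genes, differed by tissue. Ribosomal protein genes took 18.5% ± 1.14 (SD, n = 3) of the deposited TPM of a library in bone marrow, 19.3% ± 1.47 (n = 4) in blood, 21.0% (19.2% to 22.3%, n = 4) in spleen and 19.4% ± 0.944 (n = 3) in lung. They took 10.9% ± 1.82 (n = 3) in skin, 10.7% ± 0.366 (n = 3) in colon and 11.9% ± 0.434 (n = 4) in small intestine. The factors together took between 1.12% in blood and 1.56% in skin, so their highest share was in a tissue where ribosomal protein genes were low.

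Tissue differences were tested gene by gene with limma on log2(TPM + 1), and a gene was called where its p-value adjusted over all 9806 genes tested was under 0.05. Among the 7 tissues 52 of 66 factors differed, against 81.1% of all genes, a share near the background. Each tissue was then compared with the mean of the other 6, so these 7 comparisons share libraries and are not independent. Bone marrow had 12 factors higher (18.2%, against 22% of all genes) and 8 lower (12.1%, against 19.2%). Blood had 11 higher (16.7%, against 14.2%) and 21 lower (31.8%, against 18.3%). Spleen had 11 higher (16.7%, against 17.4%) and 14 lower (21.2%, against 12.5%). In lung 6 were higher (9.09%, against 9.62%) and 30 lower (45.5%, against 42.4%). In skin 21 were higher (31.8%, against 22.2%) and 6 lower (9.09%, against 12.5%). Colon had 11 higher (16.7%, against 14.4%) and 6 lower (9.09%, against 6.36%). Small intestine had 21 higher (31.8%, against 24.7%) and 8 lower (12.1%, against 16.1%). Ribosomal protein genes went mostly 1 way in each tissue: 64 of 82 higher and 3 lower in bone marrow, 48 and 9 in blood, 68 and 2 in spleen and 49 and 6 in lung, but 3 higher and 72 lower in skin, 1 and 66 in colon and 4 and 60 in small intestine.

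These splits depended on how libraries were scaled, because the median of all genes moved by −0.57 on the log2 scale in lung and by 0.08 to 0.16 in skin, colon, small intestine, bone marrow and spleen. With median-ratio scaling 18 factors were called higher and 6 lower in bone marrow, against 2502 and 1674 of all genes. In spleen the counts were 8 and 17, against 1249 and 1481, and in lung 15 and 11, against 1861 and 2536. In skin they were 11 and 10, against 1469 and 1637, and in colon 5 and 10, against 1113 and 834. In small intestine they were 14 and 12, against 2010 and 1863. With quantile normalization 18 factors were called higher and 7 lower in bone marrow, against 2135 and 2449 of all genes. In blood the counts were 15 and 17, against 1840 and 1469, and in lung 11 and 14, against 1739 and 1699. In skin they were 11 and 13, against 1506 and 1547, and in colon 5 and 11, against 1026 and 960. In small intestine they were 14 and 12, against 1814 and 2140. Single libraries also moved the number called: it was 13 in bone marrow without replicate 3, 16 in skin without replicate 2 and 10 in colon without replicate 2, against 20, 27 and 17. Changes are therefore given below relative to the median gene in each comparison, with the standard error in log2 units, while calls test the change against 0. Unless stated, each call that is given with a value also held under both scalings and with any 1 library left out.

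**Figure D1:**
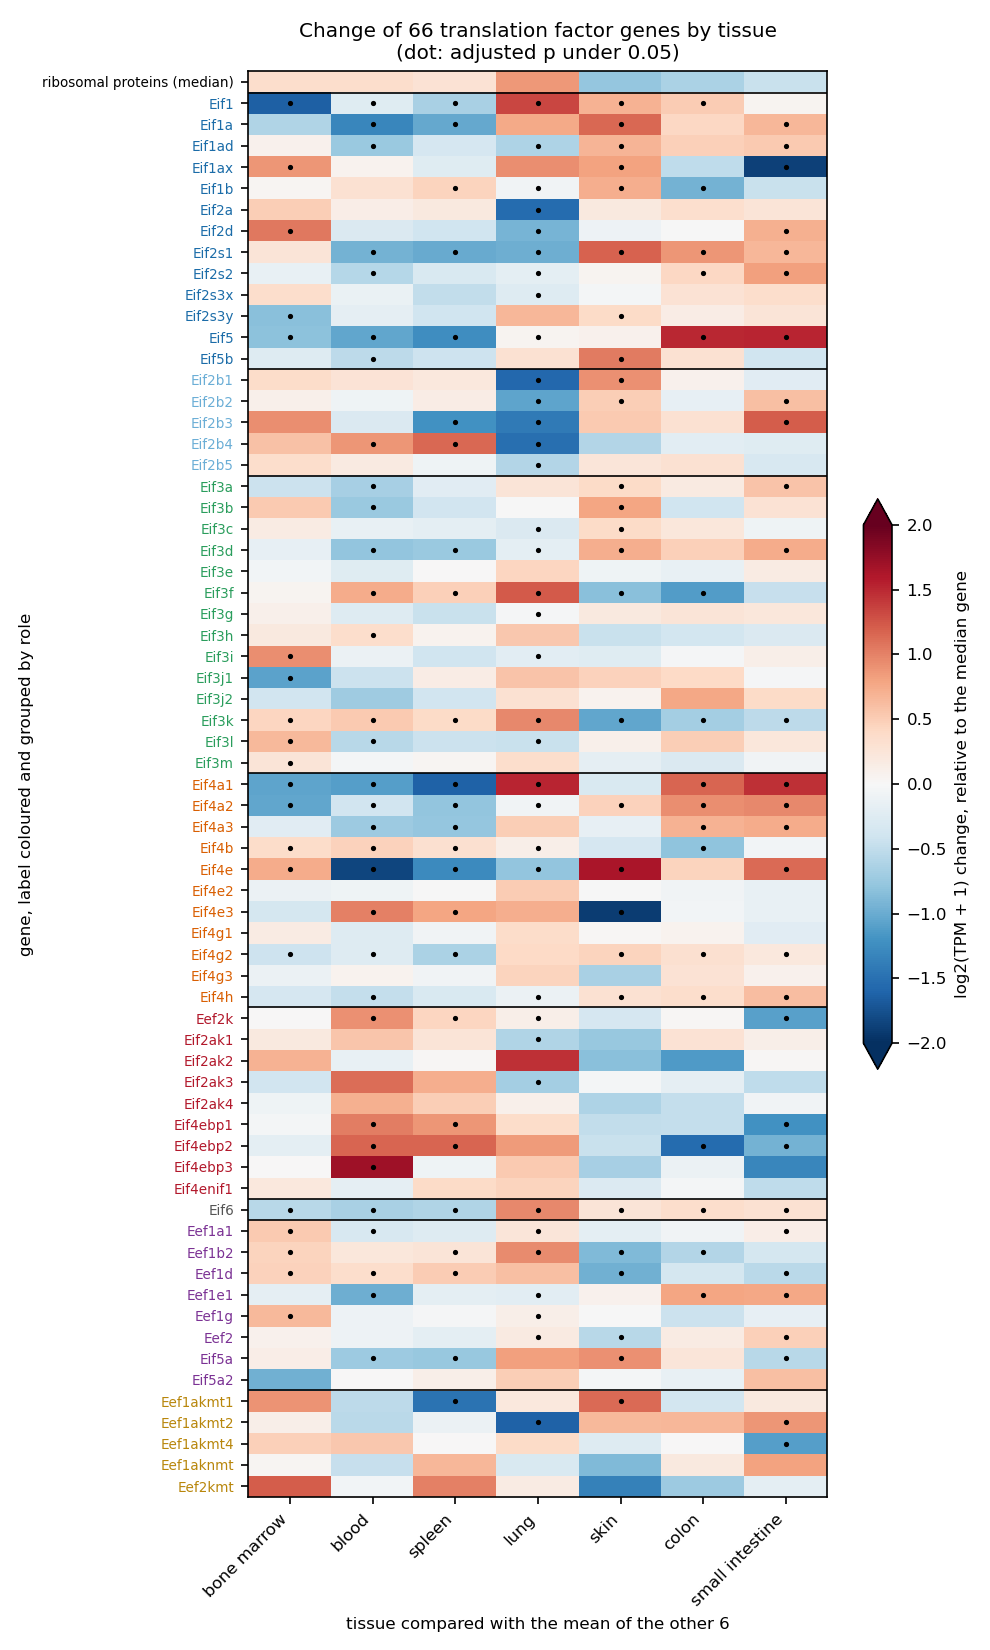
Change of each of 66 translation factor genes (vertical axis, grouped by role) in each of 7 tissues (horizontal axis) against the mean of the other 6, as log2(TPM + 1) relative to the median gene, with a dot where the limma adjusted p was under 0.05. The top line, the median of ribosomal protein genes, is red in 4 tissues and blue in skin, colon and small intestine, and only a few factors, Eif3k and Eef1b2 among them, share that division.

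The pattern of ribosomal protein genes was shared by a handful of factors and mirrored by others. Over the 7 tissue means of log2(TPM + 1), the Pearson correlation with the mean of ribosomal protein genes was at least 0.8 for 6 of 66 factors (9.09%), for 3.23% of all genes and for 63 of the 82 ribosomal protein genes themselves. These 6 were Eef1b2 (r = 0.98), Eif3k (0.98), Eef1d (0.93), Eif3h (0.92), Eif3f (0.87) and Eef2kmt (0.82). Eef2kmt did not pass the test among tissues (limma adjusted p = 0.101). The correlation was −0.8 or lower for 9 factors (13.6%, against 7.09% of all genes), led by Eif4g2 (−0.97), Eif4a2 (−0.95), Eif2s3y (−0.89), Eif3d (−0.84) and Eif5 (−0.84). Of these 9, Eif3j2 did not pass the test among tissues (limma adjusted p = 0.487). The correlation was negative for 40 of 66 factors and for 5572 of 9806 genes. Its median was −0.279 for factors, −0.114 for all genes and 0.928 for ribosomal protein genes. These are descriptions over 7 means that share libraries and scaling. Among the 24 libraries after removal of the tissue means, the median was −0.071 for factors and 0.646 for ribosomal protein genes.

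**Figure D2:**
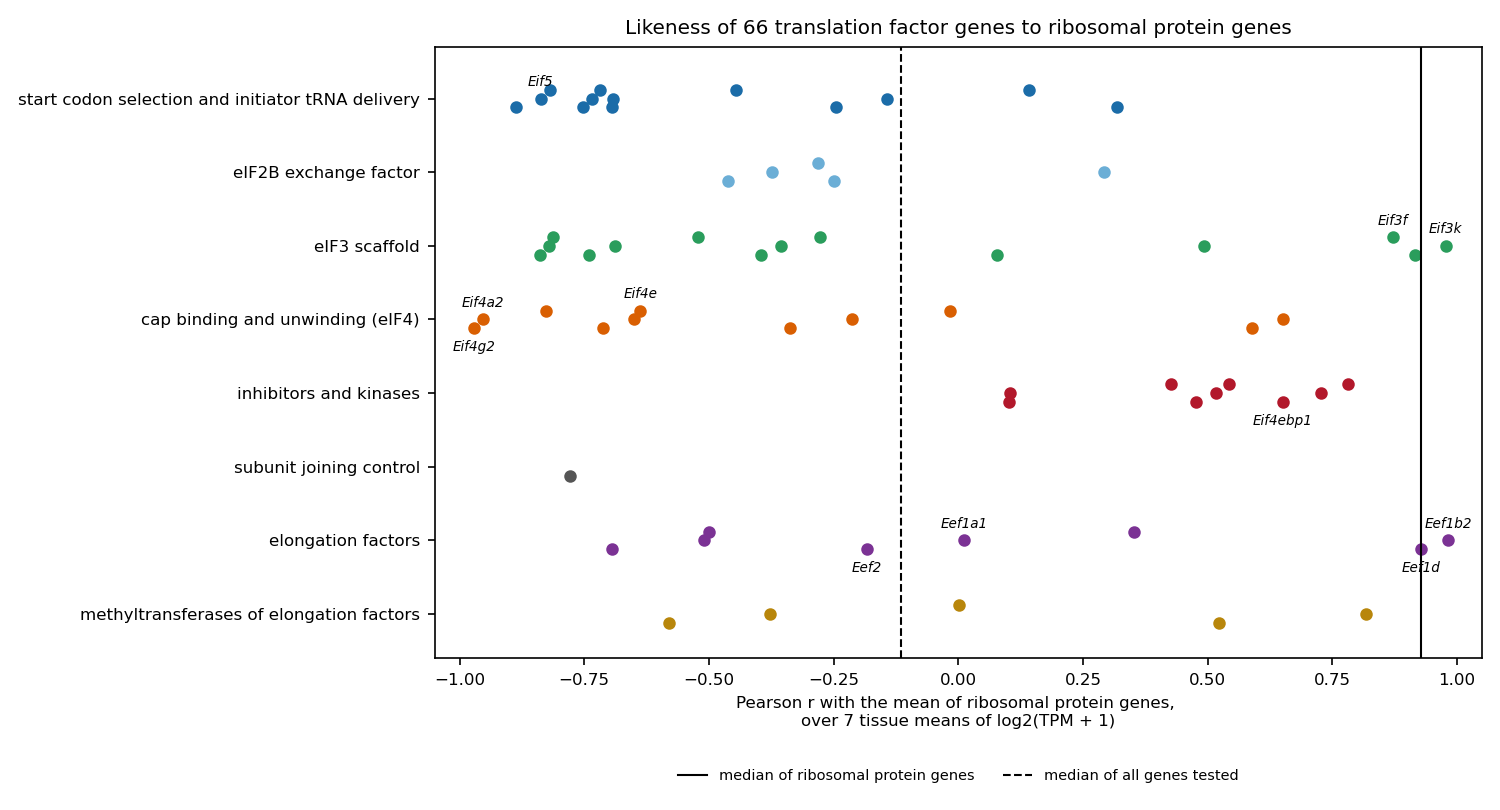
Pearson r of each of 66 factors with the mean of ribosomal protein genes over 7 tissue means (horizontal axis), by role (vertical axis), with the median of ribosomal protein genes as a solid line and that of all genes as a dashed line. Inhibitors and kinases all lie right of 0, initiation factors lie mostly left, and Eef1b2, Eif3k and Eef1d lie at or beyond the solid line.

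Among the factors that select the start codon, Eif1 and Eif1a were lower in every library of bone marrow, blood and spleen than in any of skin, colon and small intestine, and Eif5 was high in both gut tissues. Eif1 guards against starts at wrong codons. It measured 1251.67, 1024 and 957.23 TPM in bone marrow, 1915.85 to 2350.86 TPM in the 8 blood and spleen libraries, 3845 to 4820.46 TPM in lung and 2771.9 to 4583.85 TPM in the 10 skin, colon and small intestine libraries. Bone marrow was thus the lowest tissue, and no bone marrow, blood or spleen library reached the level of any library of the other tissues. The limma change was −1.64 ± 0.08 (SE) in bone marrow (adjusted p = 3.99e-14), 0.69 ± 0.08 in skin (adjusted p = 9.14e-09) and 1.34 ± 0.08 in lung (adjusted p = 5.06e-08).

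Eif5, which makes eIF2 hydrolyse its GTP once the start codon is found, lies at chr12:111538016-111546752 (GRCm38). It measured 92.35, 94.93 and 116.1 TPM in bone marrow, 104.72, 58.32, 81.29 and 93.36 TPM in blood and 76.64, 73.94, 79.96 and 91.66 TPM in spleen. In lung it measured 126.53, 139.24 and 87.41 TPM and in skin 228.19, 238.26 and 111.54 TPM. In colon it measured 380.36, 500.19 and 357.21 TPM and in small intestine 539.6, 423.12, 356.93 and 377.92 TPM. Both gut tissues were above every other library, and skin replicate 4 fell within the range of bone marrow. Relative to the median gene Eif5 was higher by 1.53 ± 0.17 in small intestine (limma adjusted p = 9.56e-09) and by 1.51 ± 0.19 in colon (adjusted p = 3.7e-07), and lower by −1.25 ± 0.17 in spleen (adjusted p = 1.02e-05).

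Among the subunits of the GTPase eIF2, the span between the highest and lowest tissue mean was 2.47 on the log2 scale for Eif2s1 and 1.10 to 1.45 for the other subunits. Eif2s2, its beta subunit, was higher in small intestine by 0.82 ± 0.16 (limma adjusted p = 2.88e-05). Eif2s1, the alpha subunit that stress kinases phosphorylate, averaged 119 ± 72.9 TPM (SD, n = 3) in skin and 17.6 ± 6.98 TPM (n = 3) in lung, and 1 skin library, replicate 4 with 36.08 TPM, lay far below the others at 147 and 174.38 TPM. Its lower call in lung was −0.97 ± 0.31 (limma adjusted p = 0.000254), and its higher call in skin was lost without skin replicate 2 (adjusted p = 0.0541). Eif1ax, the X-linked copy of eIF1A, stood at 2.96, 2.81, 2.25 and 3.69 TPM in small intestine, below every library of the other tissues, whose means ran from 8.10 TPM in colon to 19.2 TPM in bone marrow. The change in small intestine was −1.87 ± 0.24 (adjusted p = 1.54e-06), and Eif1a, the other copy, was called higher there, and reads of these near-identical copies could have been divided between them, which makes each value alone less certain than their sum. Eif1b, a near copy of Eif1, was lowest in colon, by −0.94 ± 0.17 (adjusted p = 0.000464), a tissue where Eif1 was higher. Eif1ad, a nuclear relative of eIF1A, passed the test in 4 tissues, but no such call held both under the other scalings and without any 1 library. Eif2s3y, the Y-linked gamma subunit of eIF2, was lower in bone marrow by −0.83 ± 0.21 (adjusted p = 0.00481), and the mix of sexes in each library is not given in the sources used here.

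The exchange factor eIF2B was low in lung. All 5 of its subunit genes were called lower there, against 42.4% of all genes, with a median change of −1.41 relative to the median gene, and 4 of them, all but Eif2b5, stayed called under both scalings. Eif2b4, the delta subunit, measured 1.44, 4.68 and 5.6 TPM in lung, and its lowest library in any other tissue, a small intestine library, held 8.17 TPM. Its highest libraries were in spleen, at 43.67 and 43.19 TPM. Eif2b1, the alpha subunit, measured 5.31, 0.84 and 6.29 TPM in lung, while the other tissue means lay between 14.0 and 28.8 TPM. Eif2b2, the beta subunit, measured 8.86, 23.43 and 13.11 TPM in lung and averaged 36.2 to 60.2 TPM in the other tissues. The lung changes were −1.50 ± 0.31 for Eif2b4 (limma adjusted p = 6.18e-06), −1.57 ± 0.35 for Eif2b1 (adjusted p = 2.39e-05) and −1.05 ± 0.23 for Eif2b2 (adjusted p = 3.67e-06). Lung also had the fewest genes of at least 1 TPM, with a mean of 7826 against 8601 to 9297 in the other tissues. What this has to do with the low subunits was not tested.

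The scaffold eIF3, which holds the initiation complex together on the small subunit, held members that were called in opposite directions in the same tissue, such as Eif3k and Eif3d in small intestine. Of its 14 genes 11 differed among tissues (78.6%, against 81.1% of all genes), and Eif3e, Eif3j2 and Eif3m did not pass the test. Eif3k, a peripheral subunit at chr7:28971372-28981864 (GRCm38), followed the ribosomal protein genes most closely. It measured 480.16, 495.43 and 518.85 TPM in bone marrow, 490.61, 506.58, 465.77 and 504 TPM in blood, and 516.24, 501.68, 425.83 and 557.7 TPM in spleen. Lung libraries held 488.74, 427.27 and 485.05 TPM. It fell to 224.88, 241.83 and 193.49 TPM in skin, 257.9, 254.31 and 266.29 TPM in colon, and 260.4, 283.79, 304.55 and 313.88 TPM in small intestine. No skin, colon or small intestine library overlapped any of the other 14. Against the mean of the other tissues the change was −1.03 ± 0.09 in skin (limma adjusted p = 3.99e-08), −0.68 ± 0.09 in colon (adjusted p = 2.21e-05) and −0.52 ± 0.08 in small intestine (adjusted p = 0.00024).

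Eif3f, a core subunit of the list of TOP messenger RNAs, averaged 108 to 151 TPM in bone marrow, blood, spleen and lung and 54.5 to 82.5 TPM in skin, colon and small intestine, with libraries that overlapped. Its lower call in colon, −1.12 ± 0.22, held in the way stated above (limma adjusted p = 0.00106). Its lower call in skin and its higher calls in blood, spleen and lung did not. Eif3h averaged 207 ± 30.4 TPM (n = 3) in skin and 293 ± 21.5 TPM (n = 4) in blood. Eif3e, from the same list, averaged 155 to 217 TPM in every tissue and did not differ among them (adjusted p = 0.296). Other subunits went the opposite way to Eif3k: Eif3d, which can bind the cap of some messenger RNAs, was higher in small intestine by 0.74 ± 0.18 (adjusted p = 0.000483) and lower in blood by −0.78 ± 0.18 (adjusted p = 0.00101). Eif3i was highest in bone marrow, at 143.56, 135.24 and 149.81 TPM against 38.31 to 93.38 TPM in all other libraries. Eif3d and Eif3i were chosen for mention after their values were seen.

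**Figure D3:**
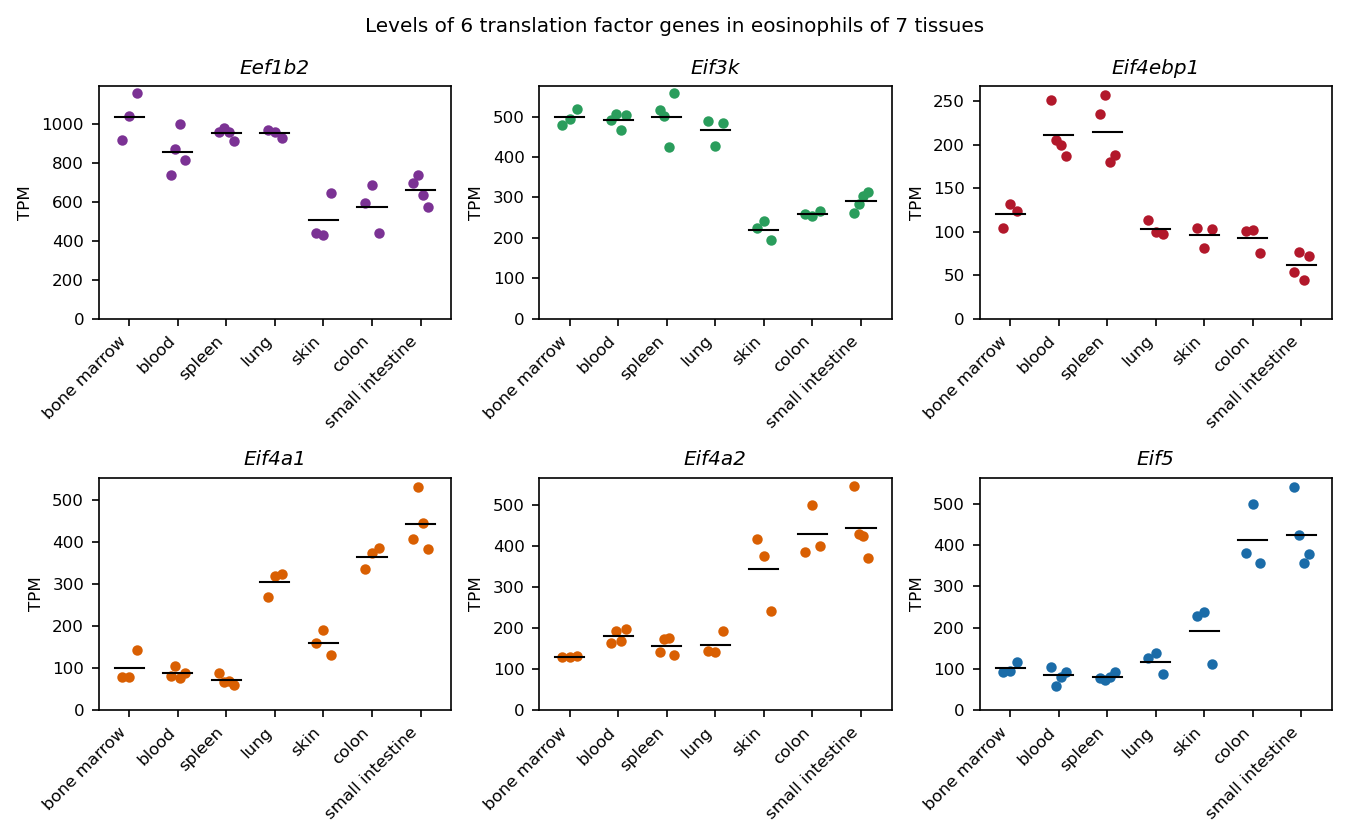
TPM (vertical axis, linear from 0) of 6 genes in each library (points) of 7 tissues (horizontal axis), with the tissue mean as a bar. Eef1b2 and Eif3k are low in skin, colon and small intestine, Eif4a2 and Eif5 are low in bone marrow, blood, spleen and lung, Eif4a1 is high in lung and gut, and Eif4ebp1 is highest in blood and spleen.

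The eIF4 group contained the strongest opposition to the ribosomal protein genes. Eif4a1, the main RNA helicase of the cap complex, measured 79.49, 77.97 and 143.63 TPM in bone marrow, 76.41 to 105.11 TPM in blood and 59.51 to 88.61 TPM in spleen. It measured 130.55 to 190.81 TPM in skin, 270.24, 320.44 and 324.03 TPM in lung, 334.85, 373.73 and 385.84 TPM in colon and 408.19, 530.29, 446.48 and 384.62 TPM in small intestine. Only bone marrow replicate 3 reached the range of skin, and every gut library was above every lung library. Relative to the median gene it was higher by 1.45 ± 0.14 in small intestine (limma adjusted p = 6.61e-10) and by 1.52 ± 0.15 in lung (adjusted p = 2.23e-05), and lower by −1.62 ± 0.14 in spleen (adjusted p = 5.09e-09). Lung was thus high for Eif4a1 as well as for ribosomal protein genes.

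Eif4a2, the closest relative of that helicase, lies at chr16:23107444-23114136 (GRCm38). It measured 128.56 to 132.47 TPM in bone marrow, 163.92 to 196.22 TPM in blood, 134.79 to 174.23 TPM in spleen and 140.23 to 192.36 TPM in lung. Skin libraries held 417.15, 373.77 and 241.19 TPM, colon libraries 385.41, 499.05 and 398.48 TPM, and small intestine libraries 545.16, 429.35, 423.63 and 370.7 TPM. All 10 libraries of skin and gut were above all others, in contrast to Eif4a1 in lung. The change was 0.96 ± 0.12 in small intestine (limma adjusted p = 9.04e-08), 0.93 ± 0.14 in colon (adjusted p = 3.71e-06) and −1.04 ± 0.14 in bone marrow (adjusted p = 2.98e-06). Reads of Eif4a1 and Eif4a2, as of Eif1 and Eif1b, could be split between copies to an unknown extent.

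Eif4e, the protein that binds the cap, had the widest span of the named genes. It measured 14.23, 17.33, 12.01 and 6.39 TPM in blood and 20.95, 20.54, 25.9 and 10.92 TPM in spleen. Bone marrow held 51.06, 73.81 and 63.95 TPM, small intestine 68.8, 85.06, 69.58 and 103.36 TPM, and skin 172.59, 114.08 and 71.28 TPM. All blood and spleen libraries were below all those of bone marrow, skin, colon and small intestine. The change was −1.83 ± 0.26 in blood (limma adjusted p = 4.46e-06), −1.27 ± 0.26 in spleen (adjusted p = 0.0017), 1.63 ± 0.30 in skin (adjusted p = 3.83e-05) and 1.13 ± 0.26 in small intestine (adjusted p = 0.000478). Eif4e3, a relative that binds the cap less tightly, went the other way: it averaged 11.3 ± 2.17 TPM (n = 3) in skin and 60.5 ± 11.4 TPM (n = 4) in blood, and its change in skin was −1.90 ± 0.18 (adjusted p = 2.59e-08). Eif4g2, a scaffold that works without the cap protein, measured 228.15 to 334.68 TPM in the 10 skin and gut libraries and 105.82 to 194.14 TPM in the 11 of bone marrow, blood and spleen. Of the eIF4 genes, Eif4e2, Eif4g1 and Eif4g3 did not pass the test among tissues. Eif4e3 was chosen for mention after its values were seen.

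The inhibitors Eif4ebp1 and Eif4ebp2 and the kinase Eef2k were called higher in blood and spleen, where Eif4e and the helicases were low. The 4E-binding proteins hold Eif4e away from the cap complex until mTORC1 phosphorylates them. Eif4ebp1 measured 251.67, 205.92, 199.42 and 186.64 TPM in blood, 235.24, 257.11, 180.52 and 188.49 TPM in spleen, 104.5, 131.99 and 123.45 TPM in bone marrow and 97.53 to 113.83 TPM in lung. In skin it measured 80.92 to 104.34 TPM, in colon 75.72 to 102.5 TPM and in small intestine 53.17, 77.03, 44.69 and 72.21 TPM. Blood and spleen stood above all other tissues, and all 10 skin and gut libraries were below all 11 of bone marrow, blood and spleen, although 104.34 TPM in skin and 104.5 TPM in bone marrow nearly met. The change was 1.02 ± 0.13 in blood (limma adjusted p = 2.66e-06), 0.89 ± 0.13 in spleen (adjusted p = 2.12e-06) and −1.21 ± 0.13 in small intestine (adjusted p = 2.2e-07).

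Eif4ebp2, a second 4E-binding protein, averaged 41.7 ± 5.56 TPM (n = 4) in blood and 8.37 ± 2.08 TPM (n = 3) in colon, where its change was −1.53 ± 0.24 (limma adjusted p = 4.75e-05). Eif4ebp3 averaged 15.4 ± 4.44 TPM (n = 4) in blood and was listed at 0 in 1 spleen and 1 small intestine library. The Eif4ebp3 change in blood, 1.70 ± 0.55 (adjusted p = 0.0222), was lost without blood replicate 1 (adjusted p = 0.0850) or replicate 3 (adjusted p = 0.0524). Eef2k, the kinase that switches off eEF2, was higher in blood by 0.91 ± 0.15 (adjusted p = 4.98e-05) and lower in small intestine by −1.09 ± 0.15 (adjusted p = 4.72e-06). Of the 9 inhibitors and kinases 4 were called higher and 0 lower in blood, where 14.2% of all genes were called higher, and 3 and 0 in spleen, against 17.4%. Lower calls numbered 3 in small intestine, against 16.1% of all genes, 1 in colon, against 6.36%, and 3 in lung, against 42.4%, with 0 higher in these tissues, and Eef2k changed sign in lung with median-ratio scaling. None of the 9 was called in bone marrow or skin. The 4 eIF2 kinases were less abundant, with tissue means from 1.32 to 17.8 TPM. Of these Eif2ak1, which senses heme, differed among tissues, and Eif2ak2, Eif2ak3 and Eif2ak4 did not pass the test. Eif4ebp3 (limma adjusted p = 0.0969) and Eif4enif1 (adjusted p = 0.254) did not pass it either. All 9 had a positive Pearson correlation with the ribosomal protein genes, from 0.10 to 0.78, whereas it was negative for 5572 of 9806 genes. For Eif2ak3 the Spearman correlation was negative, at −0.107. Eif6, which keeps the large subunit from joining too early, measured 123.02 to 182.72 TPM in the skin and gut libraries and 60.63 to 122.05 TPM in those of bone marrow, blood and spleen. It was lower in blood by −0.65 ± 0.14 (adjusted p = 0.000323).

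Among the elongation factors, Eef1b2 and Eef1d had every skin, colon and small intestine library below every one of bone marrow, blood and spleen, while the ranges of Eef1g, Eef1a1 and Eef2 overlapped. Eef1b2, the exchange subunit eEF1Bα at chr1:63176825-63180486 (GRCm38), measured 914.78, 1039.2 and 1157.17 TPM in bone marrow, 738.68, 871.83, 996.41 and 811.98 TPM in blood and 912.8 to 979.77 TPM in spleen. Lung libraries held 969.66, 955.73 and 925.33 TPM, skin libraries 437.58, 428.87 and 646.44 TPM, colon libraries 595.74, 683.43 and 440.52 TPM, and small intestine libraries 696.73, 736.56, 635.6 and 570.57 TPM. The 10 skin and gut libraries were all below the 14 others, although 736.56 TPM in small intestine and 738.68 TPM in blood nearly met. The change was −0.88 ± 0.12 in skin (limma adjusted p = 4.11e-05) and 0.44 ± 0.12 in bone marrow (adjusted p = 0.0011), while the call in colon, −0.59 ± 0.12, was lost without colon replicate 4 (adjusted p = 0.103). Relative to the ribosomal protein genes Eef1b2 did not pass the test among tissues (adjusted p = 0.683), where 57 of 66 factors did, against 89.2% of all genes, and its change in small intestine on that scale was 0.08, with an interval from −0.12 to 0.28.

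Eef1d, the delta subunit of the same complex, measured 171.03 to 267.18 TPM in bone marrow, blood and spleen and 80.74 to 148.42 TPM in skin and gut, without overlap. It was lower in skin by −0.96 ± 0.13 (limma adjusted p = 2.01e-05) and in small intestine by −0.54 ± 0.11 (adjusted p = 0.00356). Eef1g, the gamma subunit, was highest in bone marrow at 239 ± 37.9 TPM (n = 3) and lay between 120 and 169 TPM in the other tissues. Eef1a1, the most abundant elongation factor, averaged 2691 ± 290 TPM (n = 3) in bone marrow, 2179 ± 147 TPM (n = 4) in small intestine and 1510 ± 103 TPM (n = 4) in blood. Its correlation with the ribosomal protein genes was 0.01, although it is on the list of TOP messenger RNAs. Eef2, the translocase, was highest in small intestine, at 462.05, 535.57, 463.39 and 486.32 TPM, above every library elsewhere, with a change of 0.47 ± 0.13 (adjusted p = 0.000776). Eif5a, which carries the amino acid hypusine and helps ribosomes past stalling sequences, averaged 1416 ± 309 TPM (n = 3) in skin, 834 ± 97.6 TPM (n = 3) in bone marrow and 466 ± 14.0 TPM (n = 4) in blood. It was higher in skin by 0.91 ± 0.13 (adjusted p = 5.06e-07) and lower in small intestine by −0.55 ± 0.12 (adjusted p = 0.00369). Among the methyltransferases that modify elongation factors, Eef1akmt2 was lowest in lung, at 11.75, 0 and 7.66 TPM, with a change of −1.62 ± 0.41 (adjusted p = 0.00012). Eef1akmt4 was lower in small intestine by −1.10 ± 0.28 (adjusted p = 0.00654). Eef1akmt1 averaged 30.8 ± 10.1 TPM (n = 3) in skin and 7.20 ± 6.16 TPM (n = 4) in spleen, with overlapping libraries. Eef1aknmt, Eef2kmt, Eif2b3 and Eif3j2 had tissue means under 10 TPM throughout.

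The 2 sets of tissues could also be compared by ranges alone. In all 10 skin, colon and small intestine libraries, 5 factors were above all 11 of bone marrow, blood and spleen, namely Eif1, Eif1a, Eif4a2, Eif4g2 and Eif6, against 5.01% of all genes. The ratio of means was 2.98 for Eif1a, 2.59 for Eif4a2, 2.01 for Eif1, 1.79 for Eif6 and 1.62 for Eif4g2. Below were 4 factors, Eef1b2, Eef1d, Eif3k and Eif4ebp1, against 1.96% of all genes, with ratios from 0.434 for Eif4ebp1 to 0.6249 for Eef1b2. The other 57 overlapped. Of the 82 ribosomal protein genes 53 were below and 0 above. Tissues were joined in this way after their ribosomal protein levels were known, so no test was made.

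Other genes of translation were read from lists, given as higher and lower calls. For comparison, 22% of all genes were called higher and 19.2% lower in bone marrow, 14.2% and 18.3% in blood, 17.4% and 12.5% in spleen, 9.62% and 42.4% in lung, 22.2% and 12.5% in skin, 14.4% and 6.36% in colon and 24.7% and 16.1% in small intestine. Of 8 factors on the list of TOP messenger RNAs (Eef1a1, Eef1b2, Eef1d, Eef1g, Eef2, Eif3e, Eif3f and Eif3h), 4 and 0 were called in bone marrow, 3 and 1 in blood, 3 and 0 in spleen, 2 and 3 in lung, 0 and 4 in skin, 0 and 2 in colon and 2 and 1 in small intestine. The 3 lower calls in lung changed sign with median-ratio scaling, to 0.16 for Eef1a1, 0.0326 for Eef1g and 0.101 for Eef2. Of 8 other TOP messenger RNAs, 4 and 1 were called in bone marrow, 3 and 3 in blood, 2 and 1 in spleen, 1 and 3 in lung, 0 and 4 in skin, 1 and 3 in colon and 3 and 4 in small intestine. Rack1, a protein of the small subunit, averaged 775 ± 34.9 TPM (n = 3) in bone marrow and 292 ± 38.0 TPM (n = 3) in skin. Of 10 genes of the integrated stress response, 7 and 1 were called in small intestine and 6 and 0 in colon, but 1 and 7 in spleen, 1 and 6 in bone marrow and 1 and 5 in blood. Atf4, its transcription factor, averaged 1087 ± 357 TPM (n = 4) in small intestine, 1065 ± 174 TPM (n = 3) in colon and 106 ± 18.4 TPM (n = 3) in bone marrow. Aminoacyl tRNA synthetases, which load tRNA, were called higher for 11 and lower for 0 of 22 in bone marrow, and for 0 and 17 in lung. Of 17 regulators of mTORC1 and TOP messenger RNAs, 6 and 3 were called in small intestine and 2 and 5 in bone marrow. Of 7 termination and recycling factors, 4 and 1 were called in small intestine, and the release factor Etf1 averaged 169 ± 33.6 TPM (n = 4) there and 37.8 ± 0.904 TPM (n = 3) in bone marrow.

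In the second set the question was whether factors followed the ribosomal protein genes within 1 tissue. Nmur1 averaged 40.8 TPM in positive and 7.32 TPM in negative libraries. Ribosomal protein genes took 10.0% ± 0.615 (SD, n = 5) of the deposited TPM in positive and 15.8% ± 1.56 (n = 6) in negative libraries, and 78 of 82 were called lower and 0 higher. The factors took 1.36% ± 0.0498 (n = 5) and 1.48% ± 0.0654 (n = 6). Of 60 factors 4 were called higher, against 9.18% of 7982 genes, and 6 lower, against 5.25%. The median of all genes was 0.22. With median-ratio scaling 1 factor was called higher and 12 lower, against 362 and 591 of all genes. With quantile normalization 3 were called higher and 8 lower, against 428 and 529. In the same libraries 5 neutrophil markers summed to a mean of 7643 TPM in positive and 11495 TPM in negative cells. Nearly all of this was Retnlg, at 7166 and 10874 TPM. Mmp9, at 398 and 481 TPM, and S100a9, at 63.5 and 131 TPM, were also lower in positive cells. By contrast, Ngp averaged 9.84 and 5.27 TPM and Mmp8 5.91 and 3.55 TPM. The 8 eosinophil markers summed to 1991 and 1767 TPM, with Siglecf at 242 and 161 TPM and Prg2 at 14.6 and 56.4 TPM. The 2 macrophage and dendritic markers summed to 49.7 and 24.3 TPM and the 2 B and plasma markers to 277 and 218 TPM. The 2 epithelial markers summed to 42.8 and 36.7 TPM. Ppbp, a platelet marker, averaged 108 and 48.3 TPM and the endothelial marker Pecam1 199 and 126 TPM. The cycling marker Top2a averaged 2.26 and 3.18 TPM. The part of other cell types in the results was not tested.

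**Figure D4:**
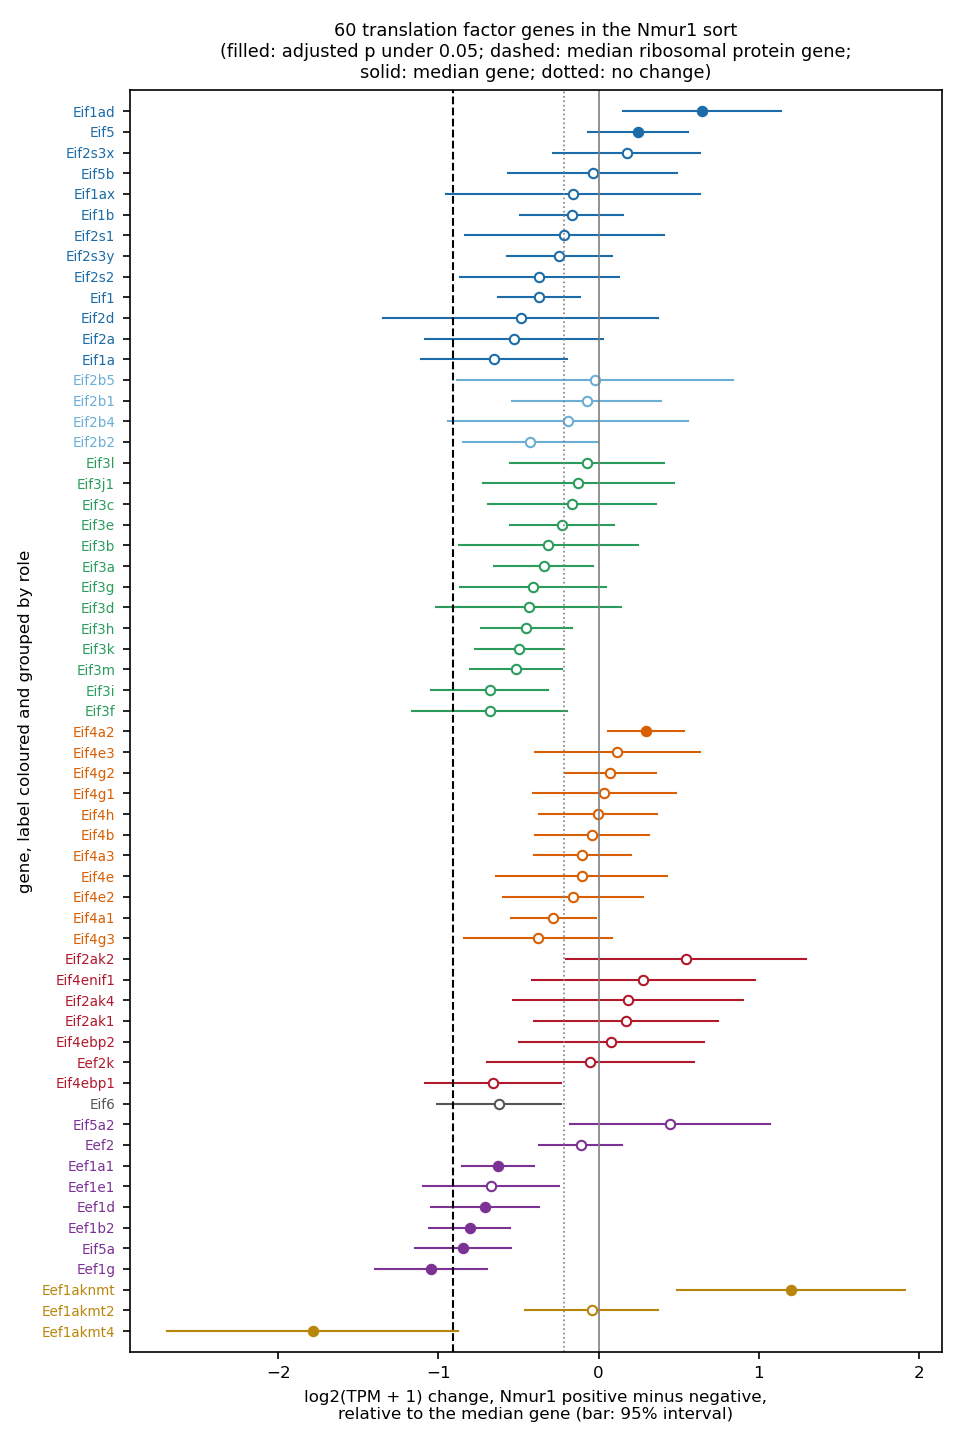
Change of each of 60 translation factor genes (vertical axis, grouped by role) in Nmur1 positive against negative libraries, as log2(TPM + 1) relative to the median gene (horizontal axis), with the confidence interval as a bar, filled points for a limma adjusted p under 0.05, and a dashed line at the median ribosomal protein gene (−0.91). Eef1g, Eif5a and Eef1b2 lie near the dashed line. Eef1d and Eef1a1 lie between it and 0, as do most initiation factors.

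Of 8 genes grouped as elongation factors by their symbols, Eef1e1 among them, 5 were called lower in positive cells, against 5.25% of all genes. Eef1e1 was not called. Eef1b2, Eef1g and Eif5a kept the call under both scalings and without any 1 library. Of 13 eIF3 genes limma called 0, where 9.18% of all genes were called higher, and 2 had an unadjusted p under 0.05, both lower. Of 4 eIF2B genes and 7 inhibitors and kinases 0 were called, with 0 and 2 at an unadjusted p under 0.05. Eef1b2 measured 710.68, 623.05, 720.07, 668.49 and 521.95 TPM in positive and 1030.34, 901.53, 924.04, 1206.51, 885.84 and 905.63 TPM in negative libraries. Eef1g measured 92.09, 111.95, 91.04, 75.05 and 94.79 TPM in positive and 149.95, 199.14, 222.26, 168.04, 142.02 and 126.97 TPM in negative libraries. Eif5a measured 298.91, 441.54, 387.91, 443.1 and 379.75 TPM in positive and 596.48, 794.04, 515, 643.45, 498.28 and 587.25 TPM in negative libraries. For all 3 genes every positive library was below every negative one. The change was −0.80 ± 0.12 for Eef1b2 (limma adjusted p = 0.00338), −1.05 ± 0.17 for Eef1g (adjusted p = 0.00283) and −0.85 ± 0.14 for Eif5a (adjusted p = 0.00653).

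Eef1a1 measured 1457.14, 1902.59, 1747.55, 1618.63 and 1602.69 TPM in positive and 2293.28, 2462.36, 2488.74, 2051.78, 1991.38 and 1998.2 TPM in negative libraries, again without overlap. Its change was −0.63 ± 0.11 (limma adjusted p = 0.0161), and it was not called with quantile normalization (adjusted p = 0.48). Eef1d measured 152.24, 94.56, 125.91, 99.77 and 99.08 TPM in positive and 146.24, 148.59, 177.11, 162.97, 130.72 and 192.9 TPM in negative libraries. Positive replicate 1 overlapped the negative range. The change of −0.71 ± 0.16 (adjusted p = 0.0473) was lost when any 1 of 9 libraries was left out, with adjusted p up to 0.11. Eef2 averaged 442 ± 39.7 TPM (n = 5) in positive and 413 ± 53.1 TPM (n = 6) in negative libraries and was not called (adjusted p = 0.605), with a change of −0.11 relative to the median gene.

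With the deposited scaling the initiation factors Eif1ad, Eif4a2 and Eif5 were called higher and 0 initiation factors lower. Relative to the median gene, the median change was −0.22 for the 13 factors of start codon selection and −0.41 for the 13 eIF3 genes. It was −0.04 for the 11 eIF4 genes and −0.69 for the 8 genes grouped as elongation factors. These groups were not tested against each other. Eif3i changed by −0.68 ± 0.17 (limma adjusted p = 0.0836) and Eif1a by −0.65 ± 0.22 (adjusted p = 0.191), neither of them called, and both were chosen for mention after their values were seen. Eif4a2 measured 597.53, 545.06, 521.01, 524.91 and 593.98 TPM in positive and 411.62, 348.88, 386.52, 333.27, 432.05 and 433.56 TPM in negative libraries. All positive libraries were above all negative ones, and its change was 0.30 ± 0.11 (limma adjusted p = 0.00585), but 0.0669 was the adjusted p with median-ratio scaling. Eif5 measured 675.15, 546.31, 694.57, 574.1 and 537.7 TPM in positive and 554.6, 400.87, 528.4, 323.12, 374.59 and 486.13 TPM in negative libraries, which overlap by 1 negative library. Its change of 0.25 ± 0.15 (adjusted p = 0.0433) was lost with median-ratio scaling (adjusted p = 0.237) and without any 1 of 9 libraries. Eif1ad averaged 41.4 ± 7.86 TPM (n = 5) in positive and 22.8 ± 6.00 TPM (n = 6) in negative libraries. The Eif1ad change in the sort, 0.64 ± 0.23 (adjusted p = 0.0207), was lost with replicates as a block (adjusted p = 0.0607), with median-ratio scaling (adjusted p = 0.0749), with quantile normalization (adjusted p = 0.0792) and without positive replicate 1 (adjusted p = 0.0549). With that block Eif6, at 138 ± 30.3 TPM (n = 5) in positive and 184 ± 42.3 TPM (n = 6) in negative libraries, was called lower.

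Among the methyltransferases of elongation factors, Eef1aknmt averaged 4.60 ± 1.81 TPM (n = 5) in positive and 1.14 ± 0.743 TPM (n = 6) in negative libraries, without overlap, and was higher by 1.20 ± 0.34 (limma adjusted p = 0.00964). Eef1akmt4 averaged 4.52 ± 2.49 TPM (n = 5) in positive and 14.9 ± 7.47 TPM (n = 6) in negative libraries. The Eef1akmt4 change in the sort, −1.79 ± 0.43 (adjusted p = 0.0215), was lost with replicates as a block (adjusted p = 0.0514) and without positive replicate 5 (adjusted p = 0.0515). Eif3k, the subunit closest to the ribosomal protein genes across tissues, averaged 277 ± 34.3 TPM (n = 5) in positive and 337 ± 49.0 TPM (n = 6) in negative libraries and was not called (−0.49, adjusted p = 0.173). For the other lists, the shares of all genes to compare with were 9.18% called higher and 5.25% lower. Of 8 further TOP messenger RNAs 5 were called lower, namely Btf3, Naca, Pabpc1, Rack1 and Tpt1, and 0 higher. Of 16 mTORC1 and TOP regulators 1, Ddit4, was lower, and limma called none of the 9 stress response genes, 22 synthetases or 6 termination factors, of which 1, 3 and 0 had an unadjusted p under 0.05.

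Relative to the ribosomal protein genes of the same library, 40 of 60 factors were called higher, against 70.8% of all genes, and 0 lower, against 1.22%, a share of higher calls near the background. With quantile normalization 23 were called on this scale. Eef1b2 changed by 0.13 (interval −0.11 to 0.37, limma adjusted p = 0.302) and Eef1g by −0.11 (interval −0.52 to 0.29, adjusted p = 0.589), and Eef1d and Eif5a were not called either. Eif4a2 was higher by 1.23 (adjusted p = 7.7e-06), Eif5 by 1.18 (adjusted p = 5.83e-05), Eif3k by 0.44 (adjusted p = 0.00718) and Eef1a1 by 0.31 (adjusted p = 0.0361). An interval that includes 0 does not show that a factor and the ribosomal protein genes changed alike. Eef1akmt4, Eef1b2 and Eef1d did not pass the test of this difference among tissues or in the sort, whereas Eif4a2 and Eif5 differed from the ribosomal protein genes in both.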

How the data were processed

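Expression was measured by Smart-seq2 RNA sequencing of 24 tissue libraries and 11 sorted libraries, and a single-cell sample was not analysed here. Per the submitters' processing notes, reads were handled with cutadapt 2.10, STAR 2.7.5c and RSEM 1.3.3 on mouse build mm10. The authors deposited TPM (transcript abundance scaled for length and library) for each library. Neither the annotation nor the filter on genes is given in the sources used here. TPM keeps no depth, so the depth of each library, and with it the precision of low values, is unknown.

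Sample titles gave the group and replicate number of each library. The values, as log2(TPM + 1), were tested in R 4.3.3 by limma 3.58.1 (linear model of group, eBayes with trend, two-sided), over genes that reached 1 TPM in 3 or more tissue or 5 or more sorted libraries. This kept 9806 and 7982 genes and every factor gene. P-values were Benjamini-Hochberg adjusted over all of them. The fits were tested on simulated data. A fold change on this scale understates that of low genes, and the 2 tables were never compared in level. A second fit subtracted the mean log2 value of the ribosomal protein genes from each library.

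The members, lists and tests were chosen with earlier results of these data known. The text names the 3 most abundant members of each role, the 10 with the widest span among tissue means where the highest mean reached 10 TPM, up to 5 called rises and falls in the sort, and the factors with TOP messenger RNAs; other members named were chosen after their values were seen. Gene coordinates came from GENCODE on GRCm38 for 65 of 66 members. In the sort the 4 pairs of libraries with the same replicate number deviated together (r = 0.174 to 0.271). The 26 pairs of a positive and a negative library with different numbers had r from −0.181 to 0.200. A fit with replicate as a block was therefore also made. Alternatives were other pseudocounts, no filter, 2 other scalings, the block and each library left out.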

Additional observations from a re-analysis of the deposited data

Results flagged for a closer look

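In 5 of 156 groups of 4 to 6 libraries (3.21%), the highest or lowest library stood apart from the others by Dixon's criterion, which chance alone gives in about 1 group in 20. Eef1akmt4 measured 46.91 TPM in blood replicate 4, and the next blood library held 26.04 TPM. Eif1ad measured 38.26 TPM in spleen replicate 3, against 17.32 TPM in the next. Eif3e measured 136.98 TPM in the same spleen library, against 216.66 TPM in the next lowest. Eif1b measured 146.33 TPM in blood replicate 1, against 161.32 TPM in the next lowest. Eif4ebp2 measured 14.65 TPM in Nmur1 positive replicate 1, against 9.41 TPM in the next.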

How the results depend on the processing

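Of 5325 values of named genes under the alternatives, 5048 kept their direction and their side of the threshold, 273 lost the call and 4 changed sign. The 4 were changes in lung against 0 with median-ratio scaling, of 0.16 for Eef1a1, 0.0326 for Eef1g, 0.101 for Eef2 and 0.0315 for Eef2k, where this scaling moved the median gene from −0.57 to −0.20. Most of the 5325 values, 3758, came from leaving out 1 library, and 3585 of these were kept. Under median-ratio scaling 132 of 162 were kept, and under quantile normalization 136 of 162. With 1 library left out, the number of factors called ranged from 13 to 21 in bone marrow, 23 to 33 in blood, 20 to 26 in spleen, 26 to 37 in lung, 16 to 31 in skin, 10 to 19 in colon, 24 to 31 in small intestine and 8 to 10 in the sort. It ranged from 50 to 55 among tissues, from 53 to 58 among tissues relative to the ribosomal protein genes and from 35 to 43 in the sort on that scale, where quantile normalization gave 23. Among the tissue libraries 62 pairs with the same number had r from −0.104 to 0.0895. The 184 pairs of different tissues and numbers had r from −0.110 to 0.0901. These values cannot show whether libraries with the same number shared an animal or a batch. With a replicate block the number called was 19 in bone marrow, 30 in blood, 24 in spleen, 33 in lung, 26 in skin, 18 in colon, 29 in small intestine, 52 among tissues, 9 in the sort and 41 in the sort relative to the ribosomal protein genes, and apart from Eif1ad, Eef1akmt4 and Eif6 it changed no other call in the sort. Leaving out all lung or all bone marrow libraries was added after the data were seen and ended 12 calls of named genes each. TPM keeps no depth, so no counting error can be given for low genes.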
